A study of Mus musculus with 6 samples.

Results

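The genes described here carry out antigen presentation on MHC class II. They are the chain genes H2-Aa, H2-Ab1 and H2-Eb1, the chaperone genes H2-DMa, H2-DMb1 and Cd74, and the regulator Ciita, 7 of the 24972 gene rows in the table. They were chosen by name, and all 7 were found. RNA came from cardiomyocytes of MX1gfp mice, named for a green fluorescent reporter of the interferon-stimulated gene Mx1. The 3 vehicle mice received 100 microlitres of phosphate-buffered saline into the peritoneum. The 3 doxorubicin mice received doxorubicin at 25 mg per kg of body weight by the same route, and every heart was taken 48 hours later. The reporter allele was thus common to both groups, and the labels give neither sex, age nor batch. Ventricular cells were freed with collagenase and the myocytes were enriched by settling under gravity without a sort, so other heart cells could remain. Nothing in the labels says that mice were pooled.

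MHC class II molecules are pairs of an alpha and a beta chain that display peptides from engulfed protein to CD4+ T cells. They are made mainly by dendritic cells, B cells and some macrophages, and interferon-gamma can induce them in other cells, the endothelium among them. Cd74, the invariant chain, escorts newly made chains and fills their groove until H2-DM, a pair of the products of H2-DMa and H2-DMb1, exchanges its last fragment for peptide. Ciita is the coactivator on which transcription of these genes depends. It binds no DNA itself but joins the factors RFX, CREB and NF-Y on the X and Y boxes of their promoters. Doxorubicin is an anthracycline against cancer that poisons topoisomerase II and is toxic to the heart.

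The promoter elements through which Ciita is known to act are shown first, where a window held them. RefSeq promoter windows of GRCm38.p6, from 250 bases before to 50 after the start of transcription, were matched by symbol to 4 members. The Y box was searched as ATTGG and the core of the X box as GNAAC, on both strands. A pair was counted when, on 1 strand, the start of ATTGG lay 30 to 36 bases after that of GNAAC, so that the motifs cannot overlap. Letters and spacing were chosen after these sequences had been seen. Capitals mark GNAAC on the left and ATTGG on the right, with 10 flanking bases before and 5 after, and each line reads 5′ to 3′ in the direction of transcription.
H2-Aa: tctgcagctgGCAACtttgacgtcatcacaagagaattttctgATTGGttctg
H2-Eb1: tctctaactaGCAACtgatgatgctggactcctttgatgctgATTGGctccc
H2-DMb1: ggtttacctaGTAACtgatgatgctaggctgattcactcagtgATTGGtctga
H2-Ob: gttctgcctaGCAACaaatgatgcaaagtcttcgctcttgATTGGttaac

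These stretches lie at chr17:34287862-34287914 on the minus strand for H2-Aa, and on the plus strand at chr17:34305766-34305817 for H2-Eb1, chr17:34153087-34153139 for H2-DMb1 and chr17:34238808-34238857 for H2-Ob. H2-Ob is no member but encodes a beta chain of the same family, and it is shown for comparison. The starts of the motifs were 33 bases apart in H2-Aa and H2-DMb1, 32 in H2-Eb1 and 30 in H2-Ob. Relative to the start of transcription, GNAAC began at -81 in H2-Aa, -91 in H2-Eb1 and -94 in H2-DMb1. H2-Oa and H2-Eb2, further class II genes with a window, also held a pair, and H2-DMb2 held none. Neither of the 2 windows of H2-DMa held such a pair. Those windows, at chr17:34122582-34122881 and chr17:34125268-34125567, lie inside the annotated span of H2-DMa, which begins at 34119693. The first of them overlaps Brd2. Whether either window is the promoter that gave the H2-DMa reads was not tested. Presence of the pair was therefore not compared with the values given below. Of all 32851 promoter windows of this length, 409 (1.25%) held a pair on either strand, and 37.4% held ATTGG on either strand, with or without GNAAC. A match describes letters only and says nothing of what bound there. Windows of H2-Ab1, Cd74 and Ciita were not used here.

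Values are normalized read counts as deposited. The libraries rested on about 7710000 to 11370000 reads in the vehicle group and 3670000 to 6170000 in the doxorubicin group, estimated from the spacing of low values, so every doxorubicin library was shallower than every vehicle library. The 8 cardiomyocyte markers summed to 572009 to 682516 in the vehicle libraries, against 519244, 167089 and 147660 in doxorubicin replicates 1 to 3, so the labelled cell type was present throughout, at a lower level in the last pair. Fewer cells of a type and less RNA per cell cannot be told apart in these bulk libraries. Of the 8 markers, 0 were called, and all 8 had a negative log2 fold change (median -1.53). Tnni3, cardiac troponin I, had 43165, 38812 and 37160 normalized counts in the vehicle group against 29111, 9826 and 6888, and Myh6, a myosin heavy chain, had 181986, 272263 and 300008 against 225671, 33549 and 47431. Of 12477 genes tested with limma, 0 passed a Benjamini-Hochberg adjusted p of 0.05 (lowest value 0.0859), and 4485 (35.9%) had an unadjusted p below 0.05. Doxorubicin replicate 1 stood nearer to the vehicle libraries than replicates 2 and 3 did, and results are given with and without it. Xist exceeded Ddx3y, a Y-linked gene, in vehicle replicate 3 and doxorubicin replicates 1 and 3, and the reverse held in the other 3 libraries. With 3 libraries a group, an exact permutation test cannot give a p below 0.1, and none is reported.

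In the vehicle libraries the members spanned a wide range of abundance. Levels were compared as normalized counts per kilobase of the longest GENCODE transcript with a RefSeq match. Cd74 was the most abundant, at 723 ± 62.9 per kilobase (SD, n = 3), followed by H2-Aa at 314 ± 20.2, H2-Ab1 at 237 ± 31.1 and H2-Eb1 at 170 ± 5.55. Each of these exceeded the next in every vehicle library. H2-DMa at 18.8 ± 3.33 and H2-DMb1 at 17.5 ± 3.47 lay within each other's spread. Ciita was lowest, at 1.77 ± 0.697 per kilobase, as transcription factor mRNAs often are. Invariant chain transcripts thus outnumbered those of any class II chain, and the H2-DM genes stood far below the chains that their products load.

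The 3 doxorubicin libraries did not lie on 1 side of the vehicle libraries. All 7 members were above every vehicle library in doxorubicin replicate 1, where 29.4% of all tested genes were (34.6% were below). In replicate 2, 6 of the 7 were below every vehicle library, where 40.3% of all genes were, and in replicate 3 it was 5 of the 7 (43.0% of all genes). In both of those libraries 0 members were above every vehicle library, where 39.8% and 42.3% of all genes were. For replicate 3 the share of members below was thus set against a background of 43.0%. The groups therefore overlapped in all 6 members that were tested, whereas 41.8% of all tested genes had groups that did not overlap (19.2% higher and 22.6% lower with doxorubicin). None (0) of the 6 passed an adjusted p of 0.05 in limma (0% of all genes did), and 0 had an unadjusted p under 0.05. Their median log2 fold change, taken as doxorubicin minus vehicle after a log2(value + 1) transformation, was -0.34, with 5 lower and 1 higher, and that of all tested genes was 0.00 (6191 higher and 6286 lower). By library the median of the 6 members was 0.62, -1.08 and -0.32 relative to the vehicle mean, while that of all genes was between -0.01 and 0.00.

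**Figure D1:**
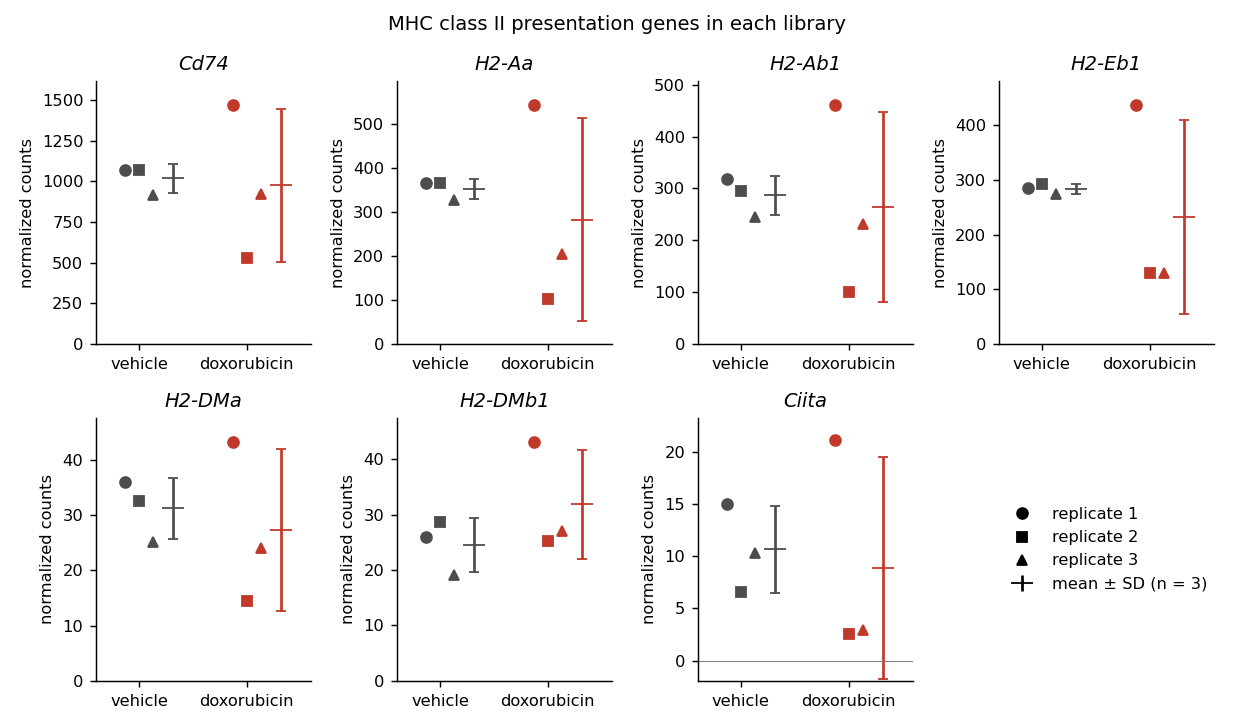
Normalized counts (vertical axes, linear) of the 7 members in each of the 3 vehicle (grey) and 3 doxorubicin (red) libraries, with symbols for replicates 1 to 3 and the mean ± SD beside them. Doxorubicin replicate 1 is the highest library in every panel, and replicates 2 and 3 lie under the vehicle libraries in most; for Ciita the SD reaches below 0.

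The alpha chain gene H2-Aa (chromosome 17, 34282744 to 34287823, GRCm38.p6) was at 367, 367 and 327 normalized counts in vehicle replicates 1 to 3. Doxorubicin replicates 1 to 3 were at 544, 102 and 204. Replicate 1 was the highest of the 6 libraries and replicates 2 and 3 were the lowest, at 0.289 and 0.578 of the vehicle mean. The group means were 354 ± 22.8 and 283 ± 231 (SD, n = 3 each), and the log2 fold change was -0.65 (SE 0.52, limma adjusted p 0.391), so the difference lay within the spread of the doxorubicin group.

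H2-Ab1 (chromosome 17, 34263227 to 34269418) encodes the beta chain that pairs with the product of H2-Aa. Its normalized counts were 319, 296 and 245 with vehicle and 461, 99.8 and 232 with doxorubicin. The order was the same, with replicate 3 only just under the lowest vehicle library. The log2 fold change was -0.37 (SE 0.49, limma adjusted p 0.603). The ratio of H2-Ab1 to H2-Aa counts was 0.749 to 0.869 with vehicle, against 0.848, 0.978 and 1.14 with doxorubicin. It was thus above the vehicle range in doxorubicin replicates 2 and 3. In replicate 2 the ratio rests on about 83 reads of H2-Ab1 and 84 of H2-Aa, and in replicate 3 on about 157 and 138. Its counting error was not computed.

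H2-Eb1 (chromosome 17, 34305867 to 34316674) encodes the beta chain of the second class II molecule, which also needs an alpha chain from the H2-Ea locus. With vehicle its normalized counts were 285, 292 and 274. Doxorubicin replicate 1 had 437, and replicates 2 and 3 had 129.7 and 129.6, each 0.457 or 0.458 of the vehicle mean. The vehicle libraries were closely alike here (SD 9.26), and the doxorubicin libraries fell on both sides of them. The log2 fold change was -0.54 (SE 0.44, limma adjusted p 0.398). The alpha chain row, H2-Ea-ps, named as a pseudogene, was listed at 0 in all 6 libraries.

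Cd74 (chromosome 18, 60803849 to 60812652) was at 1069.7, 1071 and 917 normalized counts with vehicle and at 1469, 532 and 924 with doxorubicin. Replicate 1 lay above the vehicle range, replicate 2 below and replicate 3 inside it. The log2 fold change was -0.18 (SE 0.34, limma adjusted p 0.721), and scaling the libraries to equal totals turned it to 0.12. The ratio of H2-Aa to Cd74 counts was 0.342 to 0.357 with vehicle and 0.370 in doxorubicin replicate 1, against 0.192 and 0.221 in replicates 2 and 3. Invariant chain transcripts were thus less reduced in those libraries than those of the alpha chain.

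The H2-DM genes were sparse. H2-DMa (chromosome 17, 34119693 to 34139101) was at 36.0, 32.5 and 25.2 normalized counts with vehicle and at 43.3, 14.4 and 24.1 with doxorubicin, the pattern of the chain genes on a smaller scale (log2 fold change -0.31, SE 0.41, limma adjusted p 0.614). Its annotated span overlaps Brd2, and with no word on strand their reads may not be told apart at that end. H2-DMb1 (chromosome 17, 34153191 to 34160229) was at 25.9, 28.6 and 19.2 with vehicle and at 43.2, 25.3 and 27.1 with doxorubicin. It was the exception among the 7, since replicates 2 and 3 stayed inside the vehicle range (0.34, SE 0.32, limma adjusted p 0.462). Of the 31-base words of its transcript, 37.6% also occur in H2-DMb2, so reads may be shared. The row of H2-DMb2 held 0 to 3.17. The ratio of H2-DMb1 to H2-DMa counts was 0.719 to 0.881 with vehicle and 0.997, 1.75 and 1.12 with doxorubicin. The doxorubicin ratios rest on about 41, 21 and 18 reads of H2-DMb1 and 41, 12 and 16 of H2-DMa. Their counting error was not computed.

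Ciita (chromosome 16, 10480014 to 10531064) had a mean below 10 and was not in the test. Its normalized counts were 15.0, 6.61 and 10.3 with vehicle and 21.1, 2.52 and 2.96 with doxorubicin. It followed the chain genes, with the highest value in doxorubicin replicate 1 and the lowest in replicates 2 and 3. The last 2 values rest on about 2 reads each. Their exact 95% Poisson intervals, for counting error only and with reads estimated from the spacing of low values, were 0.293 to 8.73 and 0.357 to 10.7 normalized counts, which reach the lowest vehicle value. Without a filter on low values its log2 fold change was -0.72 (SE 0.73, limma adjusted p 0.563). The span of Ciita overlaps Dexi and a noncoding RNA gene, and its separate promoters cannot be told apart in counts per gene.

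Leaving out doxorubicin replicate 1 left 3 vehicle and 2 doxorubicin libraries. In that fit 2 of the 6 members were called lower and 0 higher, where 21.8% of all tested genes were called lower and 19.3% higher. H2-Eb1 fell by 1.12 on the log2 scale (SE 0.14, limma adjusted p 0.000850) and H2-Aa fell by 1.28 (SE 0.27, limma adjusted p 0.00711). H2-Ab1 at -0.90, Cd74 at -0.54 and H2-DMa at -0.70 had limma adjusted p of 0.0543, 0.0994 and 0.141, and H2-DMb1 was at 0.11 (0.810). Giving the libraries weights by their fit, with all 6 kept, called the same pair lower. H2-Aa was at -1.20 (limma adjusted p 0.0276) and H2-Eb1 at -0.87 (0.0344), where 18.6% of all genes were called lower. Doxorubicin replicate 1 had the lowest weight, 0.277, against 0.425 to 3.24 for the other libraries. The weighted fit is therefore not independent of leaving that library out. Without replicate 2, H2-Ab1, H2-DMa and Cd74 were at 0.20, 0.06 and 0.20. The direction of these 3 genes thus depended on that library. H2-Aa was then at -0.083 (limma adjusted p 0.891) and H2-Eb1 at -0.25 (0.729), so their size rested on it too.

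**Figure D2:**
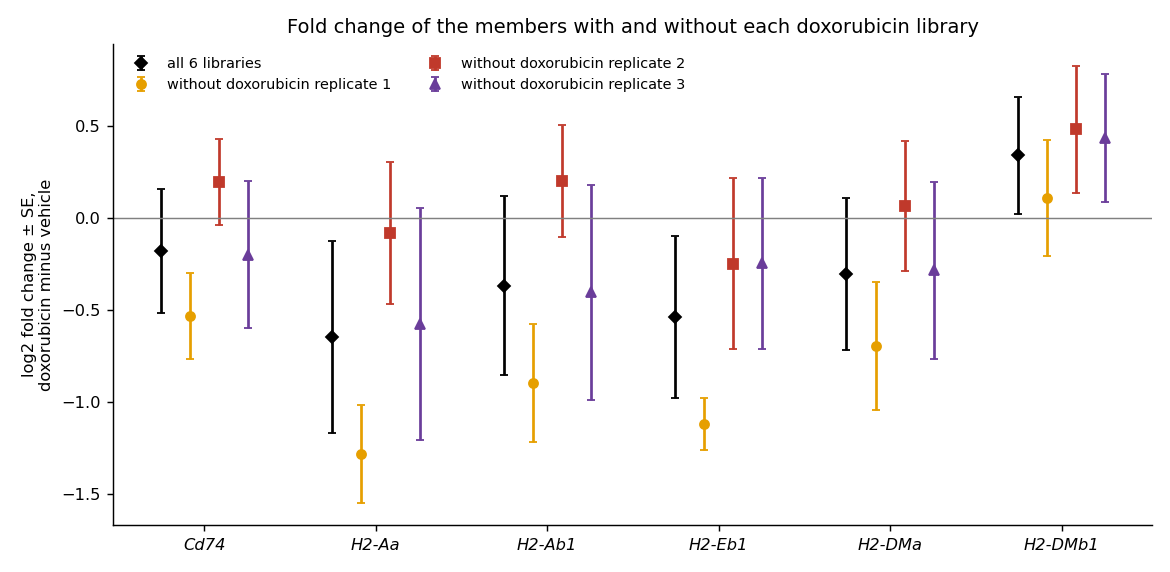
Log2 fold change with its SE (vertical axis, doxorubicin minus vehicle) of the 6 tested members with all 6 libraries and without each doxorubicin library. Without replicate 1 the values of H2-Aa and H2-Eb1 are -1.28 and -1.12; without replicate 2 those of Cd74, H2-Ab1 and H2-DMa are above 0.

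Values were also compared within the libraries split by Xist and Ddx3y, with no test, since 1 class held 2 vehicle libraries and 1 doxorubicin library and the other 1 and 2. In the class with Ddx3y, where doxorubicin replicate 2 was the treated library, H2-Aa differed by -1.84, H2-Eb1 by -1.15 and Cd74 by -1.01 on the log2 scale. In the class with Xist, with doxorubicin replicates 1 and 3, they differed by 0.03, -0.20 and 0.35. In that class H2-Ab1, H2-DMa, H2-DMb1 and Ciita differed by 0.41, 0.35, 0.80 and -0.28. The same genes differed by -1.61, -1.19, -0.10 and -1.65 in the class with Ddx3y. The split cannot be told apart from the libraries it holds.

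The accessory genes of the class II route that were tested did not share this pattern. Of 15 accessory genes listed, 13 had a usable row and 8 were tested. All 8 had a positive log2 fold change (median 0.86), 0 were called, and in 4 of them the doxorubicin libraries were all above the vehicle libraries, as in 19.2% of all genes. Ctss, the protease cathepsin S that trims the invariant chain, was at 89.9, 91.2 and 107 normalized counts with vehicle and at 188, 328 and 1524 with doxorubicin (2.24, SE 0.67, limma adjusted p 0.0859). It was thus highest in the last pair of libraries, where the chain genes were low. Ifi30, a thiol reductase of the peptide-loading compartment, had 35.5, 24.9 and 28.6 against 37.9, 68.2 and 75.5 (0.96, limma adjusted p 0.0885). Cd86, a costimulatory ligand for T cells, had 23.2, 28.9 and 12.4 against 36.6, 35.9 and 72.3 (1.13, limma adjusted p 0.104), and the remaining gene without overlap was Lgmn, a lysosomal protease, at 0.40. Ctsb, cathepsin B and the highest of the list, was at 3728, 3949.8 and 4147 against 3703, 3671 and 5733, and its groups overlapped (0.12, limma adjusted p 0.739). Of the low class II genes, H2-Ob, a modulator of H2-DM, resembled the members with 6.41, 7.70 and 7.06 against 14.7, 1.20 and 7.29, while H2-Oa and H2-Eb2 were listed at under 1 in every library.

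Regulators of class II transcription had no common direction. Of 14 regulators, 13 were tested, with 9 higher and 4 lower, a median of 0.16 and 0 called. Rfx5, a subunit of the X box factor, was at 64.5, 70.4 and 65.2 normalized counts with vehicle and at 83.4, 51.3 and 46.4 with doxorubicin. It was the subunit that ran with the members, above the vehicle range in replicate 1 and below it in replicates 2 and 3 (-0.19, SE 0.25, limma adjusted p 0.615). Rfxap and Rfxank were at 0.16 and 0.07, with groups that overlapped. The NF-Y genes Nfya and Nfyc differed by 0.53 and -0.48 (limma adjusted p 0.0944 and 0.0859), without overlap of the groups.

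The genes that carry the interferon-gamma signal to Ciita went different ways. Irf1, a factor that binds the inducible Ciita promoter, was at 284, 236 and 197 normalized counts with vehicle and at 402, 427 and 563 with doxorubicin (0.96, SE 0.20, limma adjusted p 0.0859). All of its doxorubicin values were above the vehicle values, also where Ciita was low. The receptor genes were opposed. Ifngr1 had 478, 490.1 and 392.4 against 601, 1271 and 1232 (1.12, SE 0.29, limma adjusted p 0.0859). Ifngr2 had 1781, 1735 and 1907 against 1299, 366 and 539 (-1.51, SE 0.41, limma adjusted p 0.0859). Jak1, a kinase of that receptor and the highest of the list, had 1445, 1369 and 1622 against 1424, 1379 and 1309 (-0.11, limma adjusted p 0.626). Ifng itself was at 0 to 1.21, at most about 1 read in any library.

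MHC class I differed from class II within the same libraries. Of the 10 class I genes tested, 9 were higher, all 9 with groups that did not overlap (19.2% of all genes were higher without overlap), the median was 0.94 and 0 were called. H2-D1, a class I heavy chain encoded in the same complex on chromosome 17, was at 1878, 2040.5 and 1688 normalized counts with vehicle and at 3018, 5517 and 6455 with doxorubicin (1.35, SE 0.30, limma adjusted p 0.0859). B2m, the light chain of class I, had 2462, 2480.0 and 2191 against 3703, 5362 and 7127 (1.13, limma adjusted p 0.0859). Nlrc5, the counterpart of Ciita for class I, had 52.2, 56.6 and 47.0 against 77.0, 58.8 and 157 (0.78, limma adjusted p 0.154). Thus 9 of 10 class I genes were above the vehicle range in each doxorubicin library, and the class II members in replicate 1 alone.

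Markers of cells that can carry class II were examined next. The 12 macrophage markers summed to 2749 to 2942 normalized counts with vehicle and to 4409, 7617 and 15913 in doxorubicin replicates 1 to 3. Of the 12, 11 were higher and 0 were called, 10 were higher without overlap (19.2% of all genes were), and the median was 1.53, or 0.89 without doxorubicin replicate 3. C1qa, a complement gene of macrophages, had 348, 283 and 303 against 562, 1122 and 1130.4, and Lyz2, lysozyme, had 798, 772 and 728 against 1382, 2083 and 6811. Cx3cr1, a chemokine receptor of resident macrophages, was the marker that was lower, with 60.7, 49.1 and 72.8 against 53.6, 4.80 and 42.6. Summed macrophage markers were thus highest in doxorubicin replicates 2 and 3, the libraries in which summed class II transcripts were lowest. Between these libraries, replicate 3 had the higher macrophage sum and replicate 2 the lower class II sum. Fcgr1 in replicate 2, at 14.5, stayed inside its vehicle range of 10.5 to 19.1.

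Lymphoid and dendritic markers were near the limit of detection. The 6 B cell markers with a row summed to 24.6, 45.0 and 12.2 normalized counts with vehicle and to 53.5, 9.60 and 10.5 with doxorubicin, highest in doxorubicin replicate 1 and lowest in replicates 2 and 3. The single markers did not all share this order. Ms4a1 was at 0 in doxorubicin replicates 2 and 3, and Pax5 in those and in vehicle replicate 3. Cd79b was at 4.76 in doxorubicin replicate 2, within its vehicle range of 1.73 to 5.05, and Cd22 was highest in doxorubicin replicate 3, at 7.46 against 2.46 to 4.83 with vehicle. None (0) of the 6 passed the filter on low values. The 9 T and NK cell markers summed to 15.2 to 58.8 with vehicle and to 93.1, 19.3 and 37.2 with doxorubicin, and Cd4, the one that was tested, was at 8.89, 13.4 and 17.5 against 21.0, 4.81 and 8.90. Among 9 dendritic cell markers only Zbtb46, which endothelial cells also express, passed the filter, with 163, 126 and 127 against 145, 202 and 225. Xcr1 and Clec9a, which mark cross-presenting dendritic cells, were at 0 in 4 and 5 of the 6 libraries. The part of any of these cells in the class II values was not tested.

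The summed monocyte and neutrophil markers stood higher in all doxorubicin libraries, though Ly6c2, Csf3r and Ly6g were not above the vehicle range in replicate 1. The 4 monocyte markers summed to 21.3 to 29.4 in the vehicle libraries and to 48.1, 109.5 and 90.8 in the doxorubicin libraries, and Chil3 was at 0, 0 and 0.889 against 7.34, 67.5 and 30.7 (limma adjusted p 0.0859). Ccr2, a chemokine receptor of inflammatory monocytes, was at 15.6, 20.3 and 20.6 against 29.2, 22.8 and 21.3. The 6 neutrophil markers summed to 18.7 to 37.0 and to 76.1, 522 and 420.2, led by S100a9 with 24.0, 264 and 151 against 2.54, 3.83 and 8.80. Neutrophils carry little class II, and these lists again did not follow the members.

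Vascular and stromal cells gave a different picture. The 6 endothelial markers summed to 11436 to 14962 in the vehicle libraries and to 19058, 16303 and 21676 in the doxorubicin libraries, with a median log2 fold change of 0.53. Pecam1, an adhesion molecule of endothelium, had 2681, 2655 and 1996 against 3587, 5858 and 5833, and Cdh5, VE-cadherin, had 4401, 4624 and 3422 against 5431, 4336 and 6826. Kdr, the receptor for vascular endothelial growth factor, had 4340.4, 4319 and 3448 against 5139, 2159 and 3401. The 6 fibroblast markers summed to 4614 to 5716 and to 6144, 21967 and 14977, with a median of 0.84. Dcn, decorin, had 2905, 2767 and 2446 against 3113, 18072 and 11326, and Pdgfra, a growth factor receptor of fibroblasts, had 296, 287 and 292 against 378, 1067.5 and 728. Neither list followed the members as a whole, but Kdr did.

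**Figure D3:**
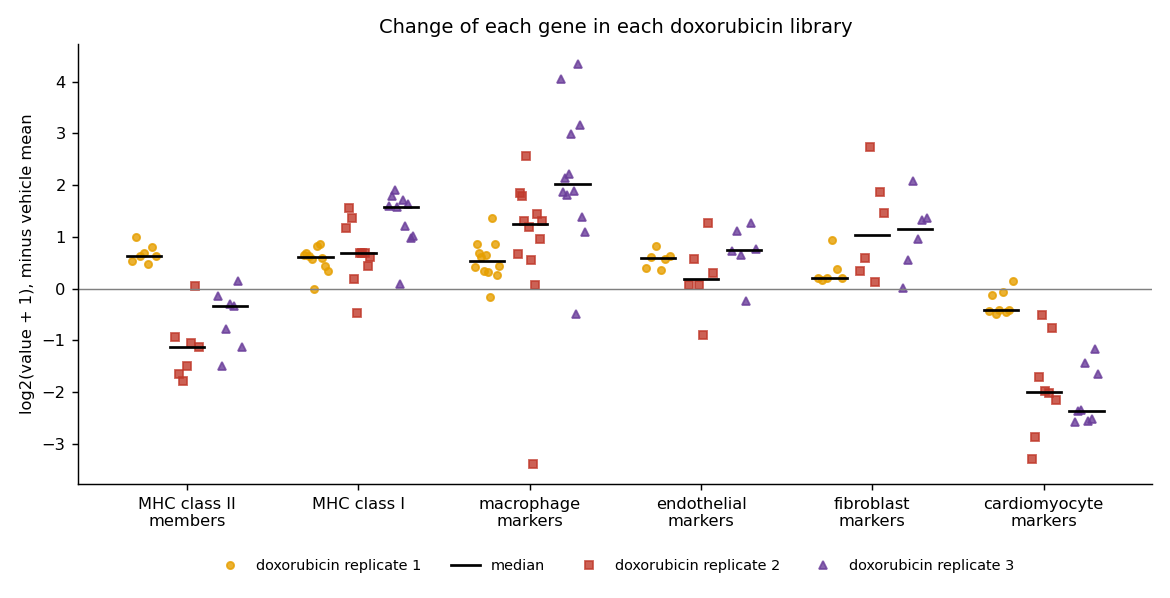
Log2(value + 1) of each gene in each doxorubicin library minus its vehicle mean (vertical axis), for 7 class II members, 10 class I genes and the markers of 4 cell types; black lines are medians of the genes drawn. Class II members lie above 0 in replicate 1 and mostly below it in replicates 2 and 3, where class I and macrophage markers lie mostly above it.

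The summed counts of Cd74, H2-Aa, H2-Ab1 and H2-Eb1 were set against the summed markers of each library, as a description with no test. Per macrophage marker count they were 0.694, 0.699 and 0.642 in the vehicle libraries and 0.660 in doxorubicin replicate 1, but 0.113 and 0.0936 in replicates 2 and 3. Replicate 1 therefore kept the vehicle proportion of class II to macrophage marker counts, and the other doxorubicin libraries held much less class II per macrophage marker count. Lyz2 held 2083 of the 7617 summed marker counts in replicate 2 and 6811 of 15913 in replicate 3, against 798 of 2942 in vehicle replicate 1. The ratio is over marker counts and does not measure class II per macrophage. Per class I count the class II sum was 0.276, 0.266 and 0.269 in the vehicle libraries. It was 0.267 in doxorubicin replicate 1, and 0.0526 and 0.0684 in replicates 2 and 3. Per endothelial marker count it was 0.135 to 0.154 in the vehicle libraries, against 0.153, 0.0530 and 0.0687 in the doxorubicin libraries. In replicate 1 these 3 ratios lay inside the vehicle range, and in replicates 2 and 3 they lay under it. Other lists gave other orders. Per fibroblast marker count replicate 1 was at 0.474, above the vehicle range of 0.357 to 0.411, and replicates 2 and 3 were at 0.0393 and 0.0995. Per dendritic cell marker count replicate 1 was at 16.9, above the vehicle range of 11.3 to 14.3, and replicates 2 and 3 were at 3.94 and 6.03. That marker sum was mostly Zbtb46, which endothelial cells also express. Zbtb46 held 163, 126 and 127 of 180, 141 and 138 summed counts with vehicle, and 145, 202 and 225 of 172, 219 and 247 with doxorubicin. The ratio therefore does not measure class II per dendritic cell. Per B cell marker count all doxorubicin libraries, at 54.4, 89.9 and 142, lay inside the vehicle range of 45.0 to 144, on few reads. Per cardiomyocyte marker count the order was different, with 0.00258 to 0.00357 in the vehicle libraries and 0.00561, 0.00517 and 0.0101 in the doxorubicin libraries, so class II stood higher per myocyte transcript in each doxorubicin library. The summed level of all 7 members was 1.502, 0.451 and 0.768 of the vehicle mean in doxorubicin replicates 1 to 3, that of macrophage markers 1.54, 2.66 and 5.56, and that of B cell markers 1.96, 0.352 and 0.384.

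**Figure D4:**
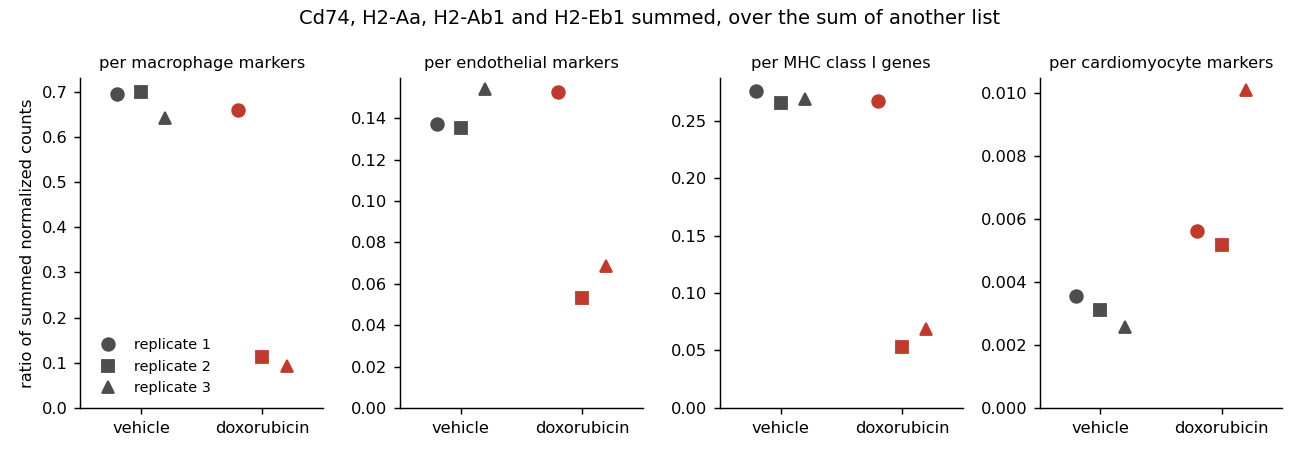
Summed normalized counts of Cd74, H2-Aa, H2-Ab1 and H2-Eb1 divided by those of another list (vertical axes, linear from 0) in each vehicle (grey) and doxorubicin (red) library. Doxorubicin replicate 1 keeps the vehicle ratio to macrophage, endothelial and class I genes, and replicates 2 and 3 lie at 0.113 or less per macrophage marker count; per cardiomyocyte marker count every doxorubicin library is above every vehicle library.

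Genes with the pattern most like that of H2-Aa, H2-Ab1, H2-Eb1 and Cd74 were sought among 10007 other genes with a mean of at least 50, by Pearson correlation of log2(value + 1) over the 6 libraries. As a description, the 10 most alike had r from 0.972 to 0.998. The most alike was Pcdh12, a protocadherin of endothelial cells (r = 0.998). It was at 550.1, 519 and 444 normalized counts with vehicle and at 756, 223 and 348 with doxorubicin. Kdr and Hmcn1, the latter encoding an extracellular matrix protein, were also among the 10, as were Dysf, Pxdn, Aasdh, Brd9, Med23 and Ndufs5. Correlation ignores the size of a change. On the log2 scale the slope against the members' pattern was 0.903 for Pcdh12, but 0.235 for Brd9 and 0.134 for Med23. Med23 was at 127, 127 and 121 normalized counts with vehicle and at 131, 109 and 120 with doxorubicin. Hbb-b2, a haemoglobin chain of red cells, was second (r = 0.985) with 73.2, 201 and 70.3 against 492, 0 and 13.6. The 6 points share libraries in which 1 stood high and 2 low.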

How the data were processed

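RNA of cardiomyocyte preparations was sequenced in 6 libraries, 3 a group, grouped by sample title. Per the labels, reads were aligned with STAR to mm10 with RefSeq genes in BaseSpace; the submitters' processing notes name STAR 2.6.1a and Salmon. How reads were counted and normalized, and whether by strand, is not given in the sources used here. Per the file, the authors deposited a signal of normalized counts per gene, not whole numbers. Of the low values, 80.0% to 92.5% lay within 0.1 of a whole multiple of the most common low value, too few to recover whole reads. Dividing each library's total by that step gave its approximate depth.

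Log2(value + 1) was tested with limma 3.58.1 in R 4.3.3 for the 12477 genes with a mean of at least 10. The fit used a trended prior and was two-sided, with Benjamini-Hochberg adjustment over all genes and a threshold of 0.05. The code was checked beforehand on simulated data that gave both groups the spread of the vehicle libraries. Spread among the doxorubicin libraries, which was wider for the members, was not covered by that check. SD is over 3 libraries. The design text gives 3 mice a group and names no litters. In 26 rows the names read as dates; they were tested where expressed but not named, so the March genes of the accessory list were not used here, nor was Ighm. Members and lists were chosen with earlier results of these data known. Named were all members, the gene with the smallest p and the most abundant gene of each list, others for contrast, and the 10 genes most like the members. Positions and promoters are from RefSeq (GRCm38.p6), transcript lengths from GENCODE M21. Alternatives changed pseudocount, filter, scaling, prior, weights, block and covariate, or left out a library. Figures used matplotlib 3.10.9 in Python 3.11.15.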

Additional observations from a re-analysis of the deposited data

How the results depend on the processing

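With all 6 libraries limma called 0 genes higher and 0 lower under each alternative except library weights (1954 higher, 2318 lower). Leaving out a library gave 0 to 2409 higher and 0 to 2718 lower, the upper ends without doxorubicin replicate 1 and a single gene lower without replicate 2. H2-DMb1 was above 0 and H2-Aa and H2-Eb1 below 0 in each fit run, but H2-DMb1 was 0.08 with quantile normalization, and leaving out a library gave -1.28 to -0.083 for H2-Aa and -1.12 to -0.25 for H2-Eb1, which was -0.25 without either doxorubicin replicate 2 or 3. Cd74 turned to 0.12 with equal totals, which moved the median of all genes to 0.29. Leaving out each library in turn gave -0.54 to 0.20 for Cd74, -0.90 to 0.20 for H2-Ab1, -0.70 to 0.064 for H2-DMa and -0.80 to 0.13 for the members' median (-0.34), the ends being doxorubicin replicates 1 and 2. That median was -0.04 with equal totals, -0.77 with library weights and -0.51 with the Xist or Y class as a covariate. The median of the regulators (0.16) was 0.23 without a filter, 0.46 with equal totals and 0.22 with library weights, and 0.10 to 0.25 when a library was left out. Medians moved to 0.41 for accessory genes and 0.11 for dendritic cell markers without a filter, 1.19 for monocyte markers with a pseudocount of 8, 0.84 and 0.74 for endothelial and dendritic cell markers with equal totals, 0.81 for endothelial and -0.70 for cardiomyocyte markers with quantile normalization, and 0.89 for macrophage markers without doxorubicin replicate 3; the cause was not tested. Ciita was -1.58 without doxorubicin replicate 1 and -0.25 without replicate 2. Deviations of same-numbered libraries from their group means had r of -0.13, 0.03 and -0.09 across genes, and differently numbered ones -0.18 to 0.22. Deviations within a group sum to 0, so these values cannot settle whether the numbers pair the libraries. The fit with the replicate block called 0 genes higher and 0 lower, and H2-Aa kept -0.65 (limma adjusted p 0.331). Ciita, H2-Ob and the lymphoid markers rest on few reads and were not in the test, except Cd4.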
